A study of Mus musculus with 10 samples.

Results

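The 41 genes described here are interferon-stimulated genes (ISGs), chosen by name from the known targets of interferon signaling. They are 41 of the 51717 genes to which the quantified transcripts were assigned, and 39 of them were among the 12381 genes with enough reads for testing. *Ifit3b* and *Mx2* had too few reads. RNA-seq was done on granulocyte-macrophage progenitors (GMPs), the bone marrow cells that give rise to neutrophils and monocytes, to ask how their transcriptome responded shortly after the loss of *Mpc2*, a subunit of the carrier that brings pyruvate into mitochondria. The WT group was *ROSA26 CreER+/-* and the recent KO group was *Mpc2fl/fl; ROSA26 CreER+/-*, all labelled male and C57Bl6/N. Both groups therefore carried the tamoxifen-inducible Cre, which is driven by the ubiquitous *ROSA26* locus, and both received tamoxifen chow for 2 wk and were then taken. CD45.2+ donor GMPs were sorted, after enrichment of CD27+ cells, from mixed bone marrow chimeras, in which irradiated recipients also held WT competitor marrow. Each of the 5 WT samples came from 1 mouse and each of the 5 recent KO samples was a pool of 2 mice, so the recent KO group covered 10 mice and its samples averaged over animals where the WT samples did not.

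Type I interferons bind the IFNAR1 and IFNAR2 receptor chains, which activate the kinases JAK1 and TYK2. These phosphorylate factors such as STAT2, which assemble with IRF9 into ISGF3, a complex that binds interferon-stimulated response elements in the promoters of ISGs. Interferon gamma acts through its own receptor, and induces an overlapping set that includes the antigen processing genes and the GTPases. Unstimulated hematopoietic cells keep many ISGs on at a low, tonic level, and infection raises them.

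Libraries held 14033776 to 19745405 estimated reads, and 3 reads, taken here as the limit of detection for counting error only, corresponded to 0.147 to 0.233 CPM (reads scaled to a common library size). *Mpc2* itself averaged 89.1 ± 26.9 CPM across WT samples and 32.2 ± 10.2 CPM across recent KO samples (SD, n = 5 each), a log2 fold change of -1.46 ± 0.24 (SE, edgeR quasi-likelihood test, adjusted p = 0.0156), and the groups did not overlap. With limma on log2(TPM + 1) the value was -1.35 and missed the threshold (adjusted p = 0.130). All 12 GMP markers were expressed, with a summed level of 65007 to 85056 TPM (transcript levels scaled for length) in WT and 38455 to 70122 TPM in recent KO samples. Of the markers of plasmacytoid dendritic cells, the main producers of type I interferon, *Klk1* and *Pacsin1* were at or under 3 reads in every sample. The sum of all 6 was 12.7 to 19.5 TPM in WT and 12.0 to 22.4 TPM in recent KO samples. By CPM, *Tcf4* stood far above the rest of the list, at 26.6 to 42.2 CPM over both groups. At most, *Cox6a2* reached 2.16 CPM, *Ccr9* 0.555 CPM and *Siglech* 0.196 CPM. The 7 macrophage markers summed to 10.2 to 24.2 TPM in WT and 27.8 to 56.2 TPM in recent KO samples. Of these, 3 passed an adjusted p-value of 0.05 in edgeR, the complement genes *C1qa*, *C1qb* and *C1qc*. The others did not pass, with log2 fold changes of 1.58 for *Fcna*, 1.23 for *Mrc1*, 0.18 for *Vcam1* and -0.39 for *Adgre1*. In bulk samples, fewer cells of a type and less RNA per cell cannot be told apart.

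ISGF3 and the IRF proteins recognize repeats of GAAA, so the core GAAANNGAAA (TTTCNNTTTC on the other strand) was counted on both strands of RefSeq promoter windows of GRCm38.p6, from 250 bases before to 50 bases after each start. Of the 31 ISGs with a window, 16 (51.6%) held the core, against 1079 of 27025 genes in the table (3.99%), and 7 ISGs held 2 or more cores, against 72 genes (0.266%). The stretches before the start of 6 of those 7 genes are shown because they carry the repeats that the genes share, written 5′ to 3′ along each gene with the cores in capitals.

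Isg15: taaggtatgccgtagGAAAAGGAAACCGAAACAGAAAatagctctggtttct
Ifit1: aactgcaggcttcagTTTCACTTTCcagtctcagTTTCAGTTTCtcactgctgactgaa
Ifit3: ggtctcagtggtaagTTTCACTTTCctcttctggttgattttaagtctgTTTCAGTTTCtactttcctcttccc
Oas1a: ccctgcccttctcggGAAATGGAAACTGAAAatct
Bst2: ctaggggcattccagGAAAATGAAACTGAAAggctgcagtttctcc
Irgm1: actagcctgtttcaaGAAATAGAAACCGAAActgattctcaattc

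The *Isg15* stretch (chr4:156200860-156200911, minus strand) had 3 overlapping cores, the farthest beginning 78 bases before the start. *Ifit1* (chr19:34640770-34640828, plus strand) and *Ifit3* (chr19:34583358-34583431, plus strand) each had 2 separate cores on the other strand, and the 74 bases shown for *Ifit3* were identical in *Ifit3b*, the remaining gene with 2 cores. *Oas1a* (chr5:120907526-120907560, minus strand), *Bst2* (chr8:71537572-71537617, minus strand) and *Irgm1* (chr11:48871421-48871465, minus strand) each had 2 overlapping cores. By role, the core was found in 4 of 5 GTPase windows, 5 of 8 windows of the RNA-binding and RNA-degrading effectors, and 0 of 3 windows of the antigen processing genes. A match is a description of these letters and not a measured binding site, and its absence says only that the letters are not in this window. The median SD between replicates, on the log2 CPM scale, was 0.29 for the 15 tested ISGs with the core and 0.24 for the 15 with a window and no core.

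The genes also lie together. On GRCm38, 21 of the 41 ISGs fell into 8 clusters in which neighbors were within 1 megabase, and the other 20 stood apart. The *Ifit* cluster (chr19:34550694-34650009) held *Ifit2*, *Ifit3*, *Ifit3b* and *Ifit1*, the *Oas* cluster (chr5:120730333-120907521) held *Oas2*, *Oas3* and *Oas1a*, and the antigen processing genes *Psmb9*, *Tap1* and *Psmb8* lay within 19468 bases of the MHC region (chr17:34181987-34201454). *Parp9* and *Dtx3l* are arranged head to head and overlap by 682 bases on opposite strands, and *Psmb9* and *Tap1* by 212 bases. The SMARTseq kit does not mark strand, so reads in those stretches could be assigned to either gene.

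In WT GMPs the ISGs ranged from 0.120 TPM at *Ifit3b* to 1466 TPM at *Psmb8*. Their median level was 5.81 TPM, close to the 5.50 TPM of all tested genes. Of the 41 ISGs, 4 were at 100 TPM or more, 11 at 10 to 100 TPM, 18 at 1 to 10 TPM and 8 under 1 TPM. The 5 most abundant made up 86.5% of the summed ISG level of 2671 TPM, and *Psmb8* alone 54.9%.

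**Figure D1:**
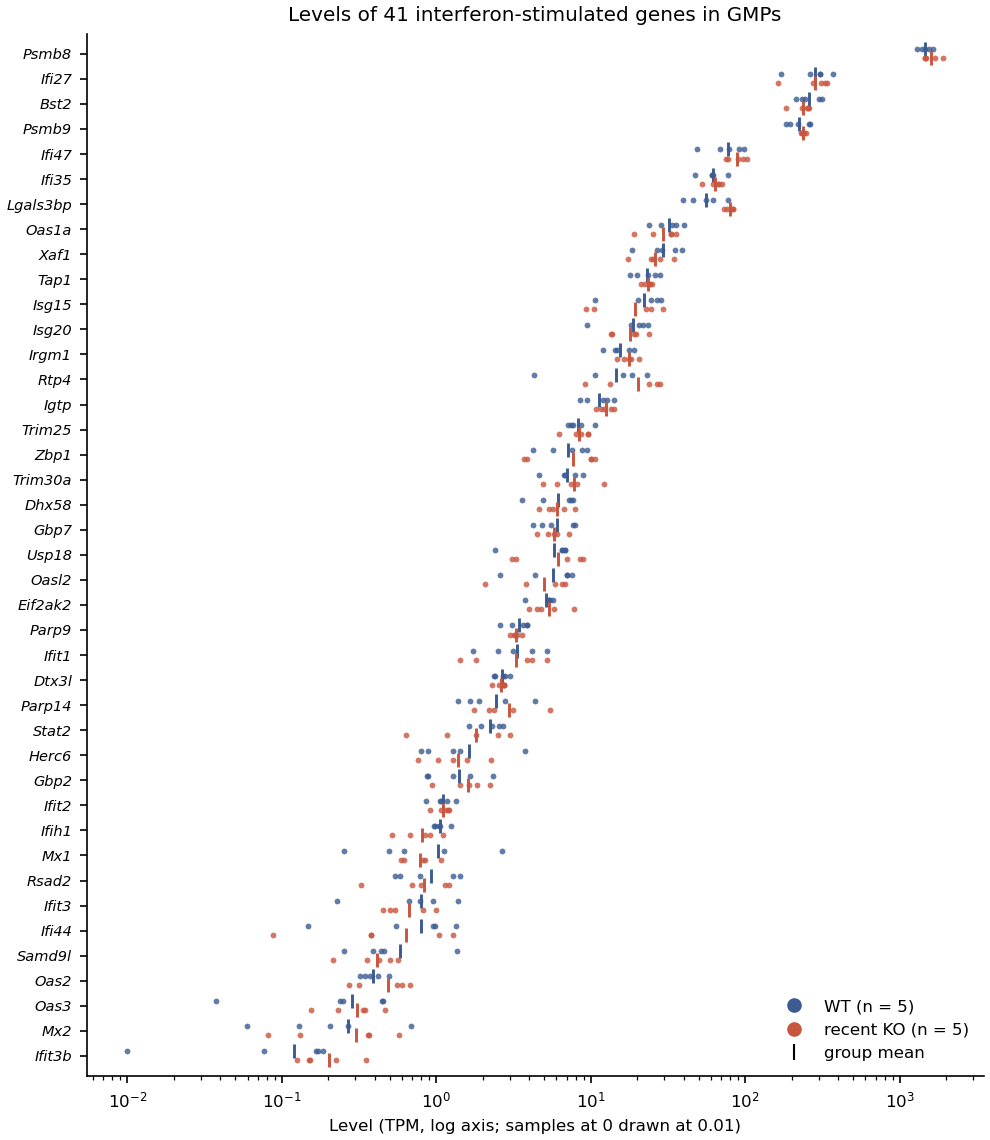
Level of each of the 41 ISGs in TPM on a log axis, ordered by the WT mean, with 1 point per sample (WT blue, recent KO red, n = 5 each) and a bar at each group mean. *Psmb8* stands at 1466 TPM in WT, and the colors overlap at every gene.

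The most abundant ISG was an antigen processing gene. *Psmb8*, a catalytic subunit of the immunoproteasome, was at 1466 ± 131 TPM in WT (SD, n = 5) and 130th of all tested genes. Its sample values were 1403, 1399, 1433, 1331 and 1508 CPM in WT replicates 1 to 5 and 1505, 1676, 1551, 1352 and 1369 CPM in recent KO replicates 1 to 5. These spanned a 1.13-fold range in WT and a 1.24-fold range in recent KO samples, and the groups overlapped. *Psmb9*, a further catalytic subunit, was at 311, 301, 275, 261 and 329 CPM in WT replicates 1 to 5 and 318, 276, 290.2, 316 and 296 CPM in recent KO replicates 1 to 5. *Tap1*, which moves the peptides into the endoplasmic reticulum, was at 89.8, 80.8, 71.8, 66.5 and 84.4 CPM in WT replicates 1 to 5 and 75.5, 73.4, 72.5, 77.6 and 80.9 CPM in recent KO replicates 1 to 5. All 3 were tight between replicates, with SDs of 0.10 to 0.13 on the log2 CPM scale, and the groups overlapped at each.

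Among the other antiviral effectors, *Ifi27* and *Bst2* were next in level. *Ifi27* was at 282 ± 73.3 TPM in WT, with sample values of 252, 232, 215, 143 and 225 CPM in WT replicates 1 to 5 and 269, 112, 198, 246 and 223 CPM in recent KO replicates 1 to 5. WT replicate 4 and recent KO replicate 2 were the lowest of their groups. *Bst2*, the tetherin that holds budding virions at the cell surface, was at 260 ± 43.5 TPM in WT, with sample values of 177, 151, 168, 148 and 185 CPM in WT replicates 1 to 5 and 175, 106, 146, 162 and 161 CPM in recent KO replicates 1 to 5. Here too WT replicate 4 and recent KO replicate 2 were lowest, by less. *Ifi35* was at 61.7 ± 10.5 TPM in WT and 96.97, 85.4, 89.00, 70.03 and 80.5 CPM in WT replicates 1 to 5 and 97.1, 65.8, 80.4, 92.2 and 87.8 CPM in recent KO replicates 1 to 5. The groups overlapped at all 3 genes.

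*Lgals3bp*, a secreted galectin-binding glycoprotein, had the smallest p-value of the tested ISGs. It was at 152, 148, 130.3, 111 and 164 CPM in WT replicates 1 to 5 and 169, 157, 171, 173 and 172 CPM in recent KO replicates 1 to 5. Of the 5 recent KO samples, 4 lay above every WT sample, and recent KO replicate 2 lay below WT replicate 5 only. The log2 fold change was 0.25 ± 0.09 (SE), or 1.19-fold (95% interval 1.04 to 1.36), with an adjusted p of 0.330 in edgeR's quasi-likelihood test across all tested genes. Unadjusted, the same edgeR fit gave 0.0130. On the TPM scale the gene was at 56.0 ± 14.7 in WT and 79.7 ± 4.84 in recent KO samples (SD), and limma on log2(TPM + 1) gave a larger log2 difference of 0.54, which also missed the threshold (adjusted p = 0.285). *Xaf1*, a XIAP-binding protein, was at 32.9, 34.4, 29.9, 18.3 and 30.2 CPM in WT replicates 1 to 5 and 41.8, 19.1, 25.2, 28.7 and 36.1 CPM in recent KO replicates 1 to 5. In WT, replicate 4 was at 18.3 CPM, where the other samples were at 29.9 to 34.4 CPM.

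*Rtp4*, a Golgi chaperone of cell surface receptors, was at 22.5, 18.4, 13.1, 4.12 and 19.3 CPM in WT replicates 1 to 5 and 32.6, 9.16, 14.1, 25.6 and 29.4 CPM in recent KO replicates 1 to 5. Its highest and lowest samples differed 5.45-fold in WT and 3.55-fold in recent KO. It also had the largest fitted difference of the tested ISGs, a log2 fold change of 0.50 ± 0.38 (SE, edgeR, adjusted p = 0.719), with an interval from 0.807-fold to 2.50-fold. *Ifi44* was at 1.96, 2.27, 2.08, 0.544 and 3.83 CPM in WT replicates 1 to 5 and 1.48, 0.2797, 1.32, 2.801 and 3.299 CPM in recent KO replicates 1 to 5, where the lowest values rested on few reads. *Rsad2*, whose product viperin makes an antiviral nucleotide, was at 6.12, 5.88, 2.85, 2.64 and 3.47 CPM in WT replicates 1 to 5 and 5.48, 1.399, 2.98, 3.41 and 5.21 CPM in recent KO replicates 1 to 5. In both genes the lowest sample was WT replicate 4 among WT and replicate 2 among recent KO. *Trim30a* and *Samd9l* were at 31.4 ± 5.07 and 2.51 ± 0.44 CPM in WT and 29.9 ± 6.27 and 2.62 ± 0.91 CPM in recent KO. *Mx1*, a dynamin-like GTPase that blocks influenza virus, was at 1.44 ± 0.75 and 1.45 ± 0.54 CPM, and *Mx2* at 0.47 ± 0.21 and 0.64 ± 0.38 CPM. RefSeq records both *Mx* genes as transcribed pseudogenes in the C57BL/6J reference, and their transcripts were 95.3% identical over 843 bases, so reads could be split between them.

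*Isg15*, a ubiquitin-like modifier joined to proteins during infection, was at 22.1 ± 7.05 TPM in WT, with sample values of 12.5, 12.6, 11.2, 5.91 and 13.2 CPM in WT replicates 1 to 5 and 12.9, 4.27, 5.18, 12.2 and 14.7 CPM in recent KO replicates 1 to 5. WT replicate 4 was lower than its group by more than the whole range of the others, and recent KO replicates 2 and 3 were the lowest of their group. *Usp18*, which removes ISG15 and dampens signaling at the receptor, was at 12.04, 12.3, 13.2, 4.51 and 12.6 CPM in WT replicates 1 to 5 and 13.6, 5.32, 6.01, 15.9 and 14.6 CPM in recent KO replicates 1 to 5. The same 3 samples were low. *Herc6*, the mouse ISG15 ligase, was at 4.80 ± 0.86 and 4.32 ± 1.13 CPM, and the ubiquitin ligase *Trim25* at 27.9 ± 3.65 and 26.3 ± 1.72 CPM, in WT and recent KO.

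Of the RNA-binding and RNA-degrading effectors, *Oas1a* was the most abundant. The OAS enzymes sense double-stranded RNA and make the oligoadenylates that activate RNase L. *Oas1a* was at 77.8, 70.1, 63.00, 53.6 and 71.2 CPM in WT replicates 1 to 5 and 72.3, 36.9, 49.7, 65.4 and 70.6 CPM in recent KO replicates 1 to 5, and its transcript was 97.6% identical over 1861 bases to that of *Oas1g*, so its level is uncertain to that extent. *Oas2* was at 1.17, 1.997, 1.603, 1.17 and 1.08 CPM in WT replicates 1 to 5 and 1.76, 1.19, 1.42, 1.64 and 2.27 CPM in recent KO replicates 1 to 5. *Oas3* was at 1.63 ± 0.96 and 1.69 ± 0.62 CPM, and the OAS-like *Oasl2* at 12.8 ± 3.51 and 13.1 ± 4.82 CPM, in WT and recent KO. The IFIT proteins bind foreign RNA and block its translation. *Ifit3* was at 2.45, 1.28, 1.603, 0.466 and 1.74 CPM in WT replicates 1 to 5 and 1.97, 0.909, 0.831, 0.974 and 1.49 CPM in recent KO replicates 1 to 5, and *Ifit3b*, 97.8% identical over 1700 bases, was at 0.26 ± 0.17 and 0.42 ± 0.21 CPM. WT replicate 4 had 0 reads of *Ifit3b*, which allows up to 0.233 CPM. *Ifit1* was at 15.2, 12.98, 8.31, 5.75 and 9.28 CPM in WT replicates 1 to 5 and 17.02, 4.13, 5.28, 11.2 and 12.2 CPM in recent KO replicates 1 to 5, a 2.64-fold range in WT and a 4.12-fold range in recent KO. *Ifit2*, in the same cluster, was at 4.85 ± 0.86 and 4.63 ± 0.78 CPM and spanned 1.57-fold and 1.46-fold. *Isg20*, an exonuclease of single-stranded RNA, was at 17.1 ± 3.89 and 17.0 ± 4.23 CPM.

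The sensors and the signaling genes were at 1 to 10 TPM in WT. *Ifih1* encodes MDA5, a sensor of long double-stranded RNA, and had the lowest unadjusted p-value among the ISGs with a negative log2 fold change. It was at 4.89, 5.05, 5.997, 6.06 and 5.75 CPM in WT replicates 1 to 5 and 5.06, 3.29, 3.62, 5.24 and 4.43 CPM in recent KO replicates 1 to 5. Recent KO replicates 2, 3 and 5 were below every WT sample, and replicates 1 and 4 lay within the WT range. The log2 fold change was -0.36 ± 0.16 (SE), or 0.781-fold (95% interval 0.616 to 0.990), with an adjusted p of 0.458 in edgeR. Unadjusted, that fit gave 0.0419. *Dhx58* encodes LGP2, a partner of MDA5, and was at 15.6 ± 3.34 and 15.2 ± 4.87 CPM in WT and recent KO. *Zbp1*, a sensor of Z-form nucleic acid, was at 5.08 ± 1.42 and 5.14 ± 2.52 CPM. *Eif2ak2*, the kinase PKR that halts translation on double-stranded RNA, was at 17.3 ± 2.44 and 16.0 ± 1.83 CPM.

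*Stat2*, a subunit of ISGF3, was at 4.26, 6.43, 4.45, 4.74 and 4.25 CPM in WT replicates 1 to 5 and 5.34, 4.97, 3.23, 4.93 and 4.95 CPM in recent KO replicates 1 to 5. WT replicate 2 was above and recent KO replicate 3 below the other samples of their groups, while WT replicate 4 and recent KO replicate 2 were not low. *Dtx3l*, a ubiquitin ligase that works with PARP9, was at 17.3, 17.5, 16.4, 16.9 and 18.7 CPM in WT replicates 1 to 5 and 17.1, 14.2, 16.8, 16.3 and 16.9 CPM in recent KO replicates 1 to 5, and had the smallest SD of the ISGs, 0.09. *Parp9* was at 12.5 ± 1.18 and 11.4 ± 0.86 CPM. *Parp14*, a mono-ADP-ribosyltransferase, was at 6.51, 6.93, 5.64, 3.65 and 7.18 CPM in WT replicates 1 to 5 and 7.66, 5.32, 4.94, 8.28 and 9.69 CPM in recent KO replicates 1 to 5.

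Of the interferon-inducible GTPases, which act on vacuoles that hold pathogens, *Ifi47* was the most abundant, at 77.1 ± 19.6 TPM in WT. Its sample values were 175, 148, 139, 100.5 and 170.0 CPM in WT replicates 1 to 5 and 153, 138, 177, 185 and 163 CPM in recent KO replicates 1 to 5. WT replicate 4 was again the lowest of its group, and recent KO replicate 2 the lowest of its own. *Irgm1* was at 37.9 ± 4.68 and 41.5 ± 5.72 CPM, *Igtp* at 25.6 ± 3.86 and 26.97 ± 3.14 CPM, *Gbp7* at 25.7 ± 4.36 and 25.0 ± 1.53 CPM, and *Gbp2* at 4.01 ± 1.49 and 4.46 ± 1.21 CPM, in WT and recent KO. *Igtp* overlaps *Irgm2* on the same strand in the annotation.

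The ISGs differed between replicates more than other genes did. Their median SD between replicates of a group was 0.34 on the log2 CPM scale, against 0.19 for all tested genes, and 10 of the 39 were among the 10% of tested genes with the largest SDs. Since SD falls with level, it was also read within ranges of mean level. From 10 to 100 CPM the 19 ISGs had a median SD of 0.29 against 0.14 for 5473 tested genes, at 100 CPM or more the 6 ISGs had 0.19 against 0.11 for 1681 genes, and under 10 CPM the 14 ISGs had 0.45 against 0.36 for 5227 genes. *Ifi44* (1.09), *Oas3* (0.93) and *Rtp4* (0.88) had the largest SDs, followed by *Ifit1* (0.71), *Usp18* (0.70), *Isg15*, *Rsad2* (0.67 each), *Ifit3* (0.66), *Zbp1* (0.65) and *Mx1* (0.58). Some of these rest on few reads. In WT replicate 4, *Oas3* had 3 reads, the limit of detection, *Ifit3* had 6 and *Ifi44* had 7. In recent KO replicate 2, *Ifi44* had 4. By role, the median SD was 0.51 for the ISG15 system, 0.46 for the RNA-binding and RNA-degrading effectors, 0.42 for the other antiviral effectors, 0.32 for the sensors, 0.20 for the GTPases, 0.19 for the signaling genes and 0.11 for antigen processing.

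**Figure D2:**
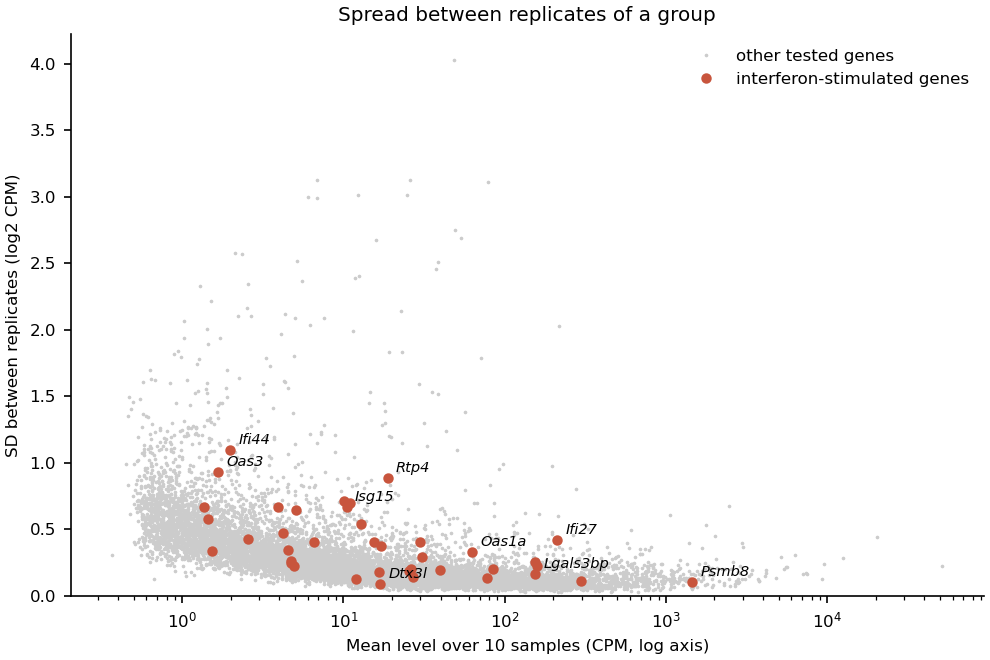
SD between replicates of a group (log2 CPM, pooled over WT and recent KO) against mean level (CPM, log axis) for the tested ISGs (red) and all other tested genes (gray). *Rtp4* (0.88) and *Isg15* (0.67) lie above most genes of their level. *Psmb8* (0.10) lies just under the median of tested genes at 100 CPM or more (0.11). *Dtx3l* (0.09) lies under the median of those from 10 to 100 CPM (0.14).

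In each group, 1 sample was low for most of the ISGs. WT replicate 4 was the lowest WT sample for 30 of the 39 ISGs (76.9%), where it was the lowest for 24.2% of all tested genes, and it was below the mean of the other WT samples for 36 of the 39. Its median ISG was at 0.684-fold of that mean. Recent KO replicate 2 was the lowest recent KO sample for 27 ISGs (69.2%, against 25.2% of all tested genes), with a median of 0.727-fold and 35 of 39 below. For 21 ISGs both samples were the lowest. Recent KO replicate 3 was below the others for 32 of 39 and was the lowest for 10 (25.6%, against 19.2% of all tested genes). Among the other antiviral effectors, WT replicate 4 was lowest for 11 of 11 and recent KO replicate 2 for 10 of 11. The counts were 2 of 4 and 4 of 4 in the ISG15 system, 3 of 3 and 1 of 3 in antigen processing, and 1 of 4 and 2 of 4 in the signaling genes. At the other end, WT replicate 5 and recent KO replicate 1 were each the highest of their groups for 17 ISGs (43.6%). They were the highest for 17.5% and 22.1% of all tested genes. These counts describe samples that share their cells and libraries across genes, and no test was made of them.

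**Figure D3:**
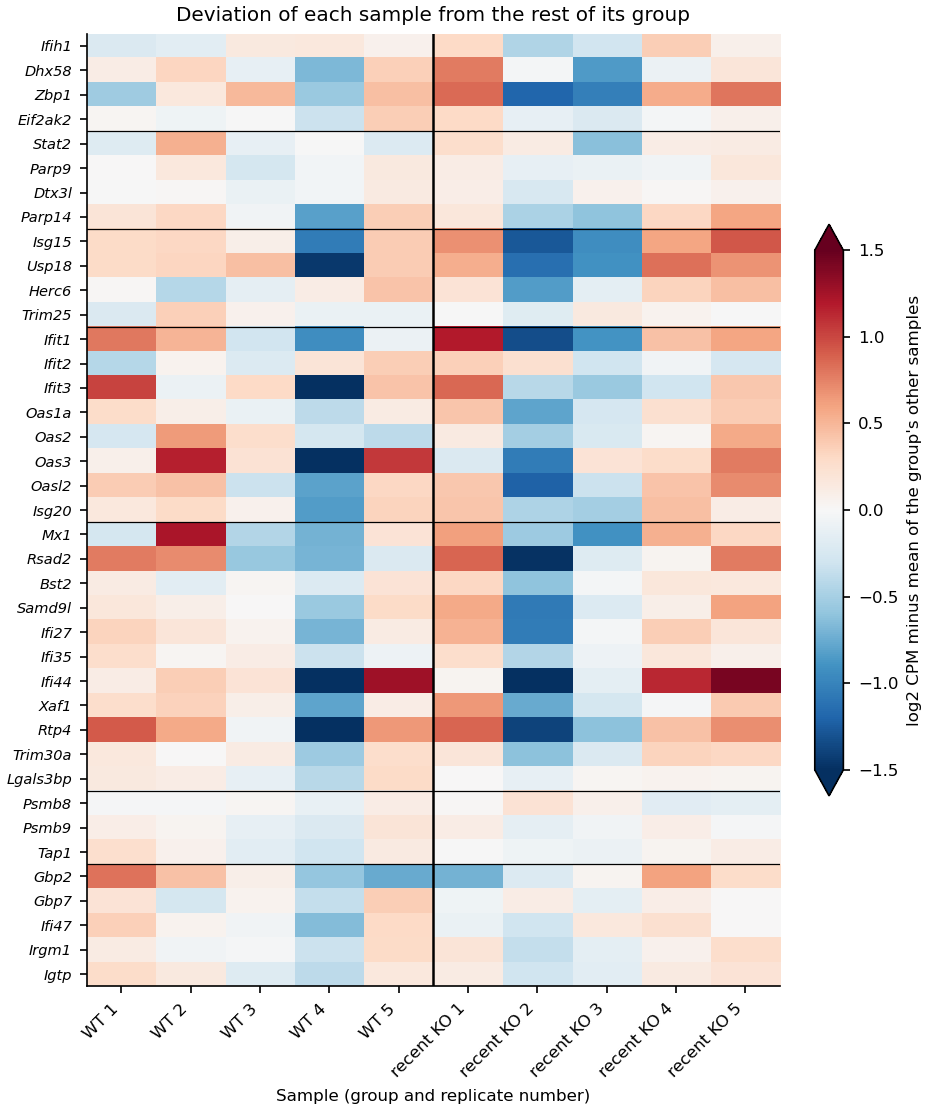
Deviation of each sample from the mean of the other samples of its group (log2 CPM, colors cut at 1.5) for the 39 tested ISGs, with rows grouped by role and columns by sample. The columns of WT replicate 4 and recent KO replicate 2 are blue (below that mean) for 36 and 35 of the 39 genes.

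WT replicate 4 and recent KO replicate 2 also had the fewest reads of their groups, 14133706 and 14033776, while recent KO replicate 1, with 14655377 reads, was above the other recent KO samples' mean for 33 of 39 ISGs. Their plasmacytoid dendritic cell markers summed to 14.6 and 20.2 TPM, with *Tcf4* at 32.6 and 35.6 CPM and *Siglech* at 0 CPM in both. Their macrophage markers summed to 14.3 and 56.2 TPM, the latter the highest of all samples. Their GMP markers summed to 85056 and 70122 TPM, the highest of each group. By CPM, *Mpo* was the most abundant of these, at 69039 and 52803.5 CPM, also the highest of each group. Not all GMP markers were high. In WT replicate 4, *Cd34* (165 CPM) and *Irf8* (116 CPM) were at their lowest WT values. In recent KO replicate 2, *Cebpe* was at 27.8 CPM, with only recent KO replicate 3 lower (24.5 CPM). Their basophil and mast cell markers summed to 173 and 256 TPM, the lowest of each group. Neutrophil markers summed to 20.5 TPM in WT replicate 4, the lowest WT sample, and to 298 TPM in recent KO replicate 2, the highest of all. Monocyte markers summed to 4873 TPM in WT replicate 4 and to 5279 TPM in recent KO replicate 2, the highest of all. Recent KO replicate 3 was also below the others for 32 of 39 ISGs, yet had the most reads of its group, 19658346. Its GMP markers (38455 TPM), *Mpo* (31826 CPM) and monocyte markers (1099 TPM) were the lowest of all samples. Whether depth or these markers had a part in the low ISG levels was not tested. The summed ISG level did not show the pattern in recent KO samples, where *Psmb8* dominates it: recent KO replicate 2 had 2871 TPM and the other recent KO samples 2767 to 2877 TPM. In WT, replicate 4 had 2151 TPM and the others 2503 to 3024 TPM. Without WT replicate 4 and recent KO replicate 2, the median SD of the ISGs was 0.24 against 0.18 for all tested genes, and 4 of the 39 were among the 10% with the largest SDs. These samples were left out because they were lowest for most ISGs. A fall in the SD of the ISGs was therefore built into this choice, and no conclusion is drawn from it.

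Between the groups, 0 of the 39 tested ISGs passed an adjusted p-value of 0.05 in edgeR's quasi-likelihood test, where 41 of all 12381 tested genes did (0.331%). At an unadjusted p-value under 0.05, 2 of the 39 passed (5.13%), *Lgals3bp* and *Ifih1*, against 10.2% of all tested genes. DESeq2 called 0 ISGs with 2 under an unadjusted 0.05, and limma on log2(TPM + 1) called 0 with 1. The share of all genes under an unadjusted 0.05 was not computed for DESeq2 or limma. For 0 ISGs did the 2 groups separate without overlap, where 1.11% of tested genes separated with recent KO higher and 1.32% with recent KO lower. Fitted log2 fold changes (recent KO against WT) were above 0 for 17 ISGs and below 0 for 22, or 24 and 15 with library size as the only scaling. Their median was -0.03, against -0.0018 over all tested genes, and with library size as the only scaling it was 0.03 against 0.07. Of the 41 genes called among all tested genes, 15 were higher in recent KO, or 26 of 46 with library size as the only scaling.

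The size of difference that these data leave possible varied with the gene. For 36 of the 39 ISGs the fitted difference was under 1.2-fold, for 36 the 95% interval left out a 2-fold change in either direction, and for 24 it left out a 1.5-fold change. *Psmb8* had an interval of 0.942-fold to 1.18-fold, *Isg15* of 0.556-fold to 1.41-fold, and *Ifi44* of 0.405-fold to 1.83-fold. By role, 0 genes were called in any of the 7 groups, and the median log2 fold change was -0.08 for the 4 sensors, -0.07 for the 4 signaling genes, -0.11 for the 4 genes of the ISG15 system, -0.04 for the 8 tested RNA-binding and RNA-degrading effectors, -0.01 for the 11 tested other antiviral effectors, 0.02 for the 3 antigen processing genes and 0.13 for the 5 GTPases. With library size as the only scaling, the medians of the RNA-binding and RNA-degrading effectors and of the other antiviral effectors turned to 0.02 and 0.06, under the 0.07 of all tested genes. Besides *Rtp4* and *Lgals3bp*, the largest positive log2 fold changes were 0.25 ± 0.21 for *Parp14*, 0.24 ± 0.27 for *Oas2* and 0.15 ± 0.13 for *Ifi47* (SE). After *Ifih1*, the largest negative values were -0.31 ± 0.38 for *Ifit3*, -0.22 ± 0.51 for *Ifi44*, -0.19 ± 0.34 for *Rsad2* and -0.19 ± 0.16 for *Oas1a*.

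**Figure D4:**
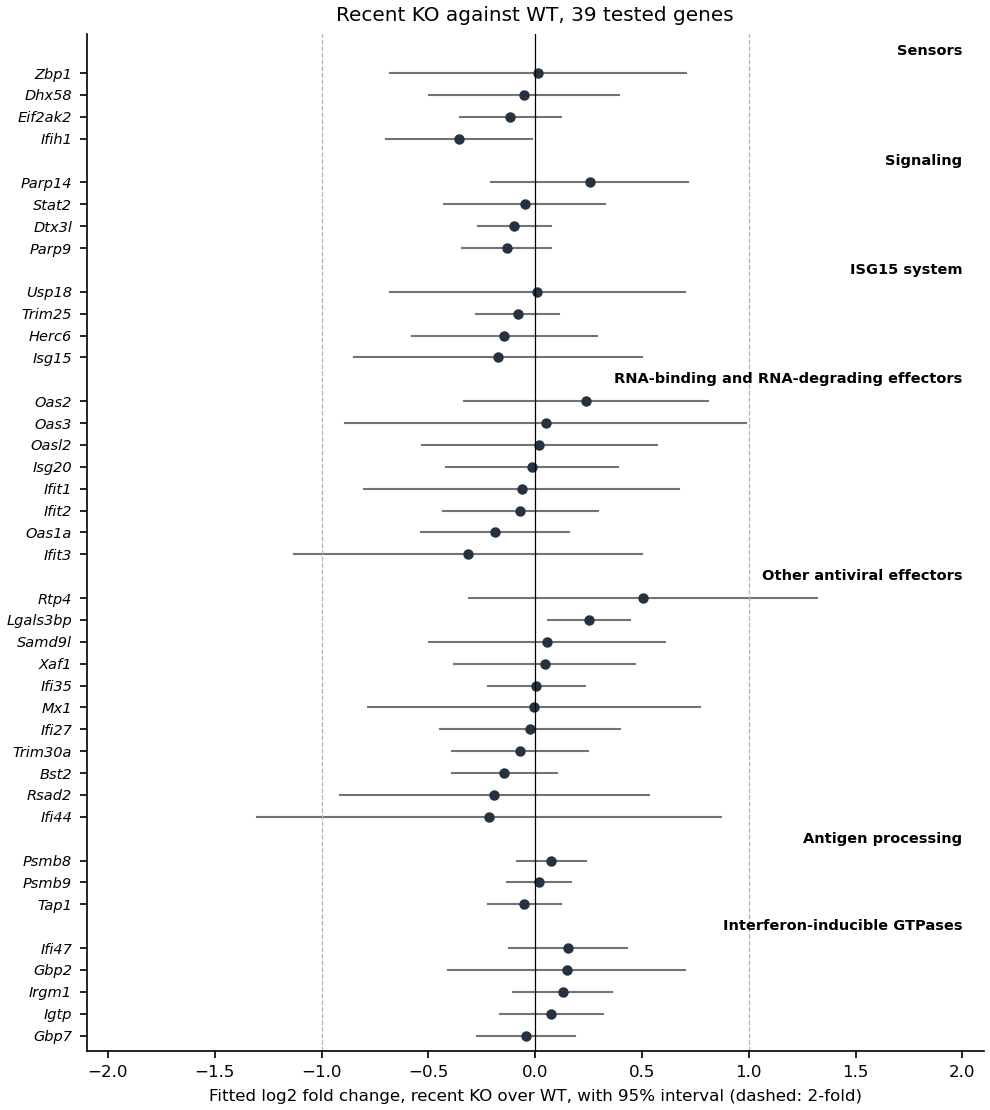
Fitted log2 fold change, recent KO against WT (points) with 95% intervals (lines) for the 39 tested ISGs, grouped by role, with dashed lines at 2-fold. The intervals of 37 genes include 0, those of *Lgals3bp* and *Ifih1* do not, and no gene passed after adjustment.

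Of the 40 other genes of the interferon pathway, 25 were tested and 0 passed the adjusted threshold in edgeR, with 1 at an unadjusted p-value under 0.05. DESeq2 and limma also called 0. The sensor *Mb21d1* was looked up by that symbol only, which no gene of the annotation had. Its newer symbol, *Cgas*, was not looked up, so the level of this gene was not read. Of the tested genes, 9 had fitted log2 fold changes above 0 and 16 below. The 9 ligand genes had few reads, with at most 7 reads of any in a sample, *Ifnb1* having the most. The receptors were expressed. *Ifngr1*, the ligand-binding chain of the interferon gamma receptor, was at 362, 375, 348, 368 and 338 CPM in WT replicates 1 to 5 and 383, 457, 194, 246 and 271 CPM in recent KO replicates 1 to 5, with recent KO replicate 3 the lowest. The kinase *Jak1* was at 49.5, 39.3, 47.1, 42.7 and 45.5 CPM in WT replicates 1 to 5 and 51.2, 44.7, 50.3, 45.4 and 49.1 CPM in recent KO replicates 1 to 5, and overlapped between groups. *Ikbke*, a kinase that activates IRF3 below the nucleic acid sensors, had the lowest unadjusted p-value of the list. It was at 22.2, 21.2, 20.3, 23.6 and 20.9 CPM in WT replicates 1 to 5 and 17.7, 21.1, 18.9, 14.3 and 19.4 CPM in recent KO replicates 1 to 5, a log2 fold change of -0.24 (edgeR, adjusted p = 0.416). *Ptpn6*, the phosphatase SHP-1 that restrains JAK signaling, was at 207, 214, 205, 221 and 194 CPM in WT replicates 1 to 5 and 186, 223, 179.5, 183 and 177 CPM in recent KO replicates 1 to 5.

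Of the factors, *Irf9*, the DNA-binding subunit of ISGF3, was at 26.5, 24.1, 20.8, 15.3 and 27.8 CPM in WT replicates 1 to 5 and 24.3, 18.5, 18.3, 23.7 and 25.05 CPM in recent KO replicates 1 to 5. *Irf7*, the IRF that amplifies the type I interferon response and is itself induced by it, was at 10.4, 12.4, 10.3, 2.798 and 15.6 CPM in WT replicates 1 to 5 and 20.7, 6.43, 7.38, 12.6 and 13.8 CPM in recent KO replicates 1 to 5. *Irf7* was lowest in WT replicate 4 and recent KO replicate 2, and its SD was larger than that of 97.0% of tested genes. Over the 25 tested pathway genes, WT replicate 4 was the lowest WT sample for 4 (16.0%) and recent KO replicate 2 the lowest recent KO sample for 4 (16.0%), where the shares among the ISGs were 76.9% and 69.2%.

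**Figure D5:**
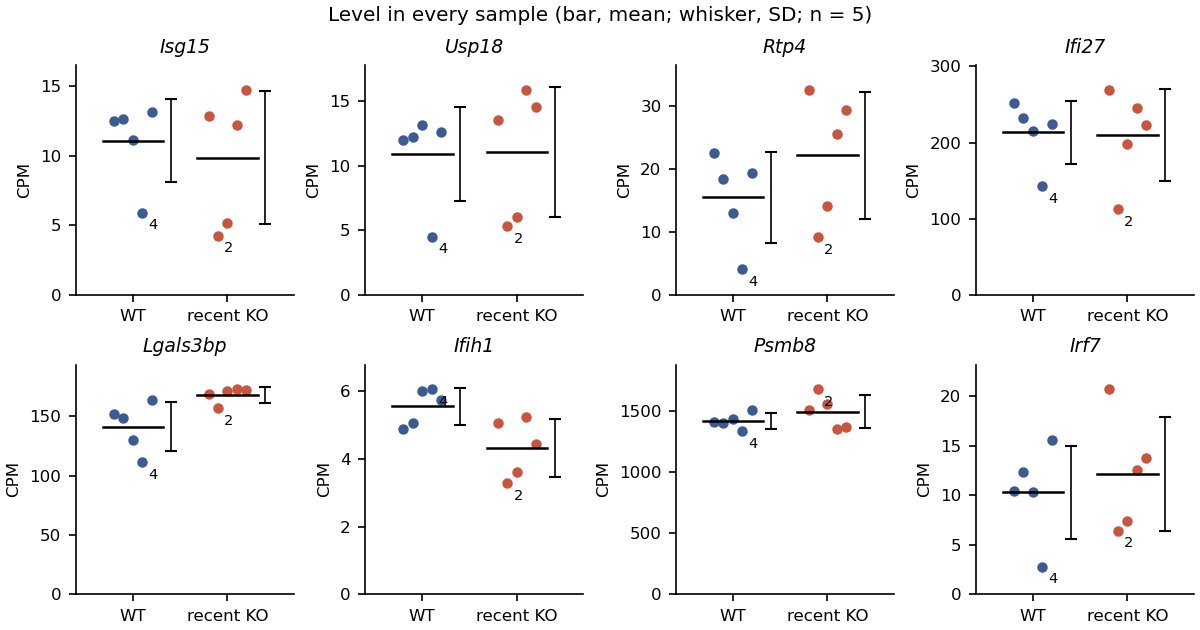
CPM in each sample of 7 ISGs and of *Irf7*, with a bar at the mean and a whisker for the SD of each group (n = 5), and WT replicate 4 and recent KO replicate 2 numbered. At *Isg15*, *Usp18*, *Rtp4*, *Ifi27* and *Irf7* both numbered samples are the lowest of their groups, and at *Psmb8* recent KO replicate 2 is the highest.

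At the transcript level, most ISGs were carried by 1 protein-coding transcript. *Rsad2* and *Bst2*, with 3 and 2 quantified transcripts, each had 100% of their reads, pooled over samples, on 1 transcript. *Isg15*, *Ifit1*, *Ifit3* and *Oas1a* had only 1 quantified transcript each, so their share of 100% was fixed in advance. Others were split. *Psmb8* had 47.7% and 26.2% of its reads on 2 protein-coding transcripts and 25.9% on a transcript with a retained intron. *Oas2* had 43.4% on a transcript with a retained intron. *Mx1* had 51.5% on a transcript annotated as a target of nonsense-mediated decay, and *Oasl2* had 38.99% on a transcript of that class. At *Oas2* and *Mx1* these shares rest on few reads, and between WT samples they went from 0% to 76.2% and from 0% to 82.9%.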

How the data were processed

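RNA-seq of sorted GMPs from 5 WT and 5 recent KO samples was re-analysed, and groups were taken from the sample labels. Per the methods, the authors made SMARTseq libraries, sequenced paired-end reads on a NovaSeq and quantified GENCODE M27 (GRCm39) transcripts with Salmon, for which the submitters' processing notes give version 1.5.1. The authors deposited 2 values for every transcript and sample: an estimated count of reads from Salmon, without normalization, and TPM, which are scaled for transcript length and to a fixed total. A deposited table of the authors' own DESeq2 comparison (mean, fold change, SE, statistic and p-values per gene) was not used. The filter applied to reads is not given in the sources used here.

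Transcripts were assigned to genes with GENCODE M21 (GRCm38) by identifier without version. Of 140789 transcripts, 137161 (97.4%) matched, and the rest held 0.348 to 0.390% of reads. Estimated counts were summed per gene, rounded and tested with edgeR 4.0.16 (TMM scaling, filterByExpr with a minimum count of 10, quasi-likelihood test, Benjamini-Hochberg adjustment over 12381 genes, threshold 0.05) in R 4.3.3. CPM use TMM library sizes. Log2 CPM had a prior count of 2, and SDs between replicates were pooled over both groups. TPM were summed over a gene's transcripts and used for levels between genes. Alternatives used DESeq2 1.42.0 and limma 3.58.1. The test was tried on simulated counts with known changes. Near-identical copies (at least 95% over 200 bases) were sought with BLAST 2.17.0. The ISGs, the pathway and marker lists were chosen with earlier results of these data known. Values in every sample are given for the 10 ISGs highest in WT TPM, the 5 largest positive and negative log2 fold changes, and genes with a sample far from its group. *Ifit1* was added after its values were seen. Pathway genes shown are the lowest p-value of each role, and *Irf7* and *Irf9*, with 1 item of that rule not reported here. WT samples and recent KO samples have separate mice. The p-values measure the spread between single WT mice and between pools of 2 recent KO mice, fitted together for each gene.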

Additional observations from a re-analysis of the deposited data

Results flagged for a closer look

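In 7 of the 82 groups of 5 samples examined (the 41 ISGs in WT and in recent KO), the highest or lowest sample lay farther from its nearest neighbor than Dixon's critical value of 0.71 of the whole range allows. Chance alone flags about 1 in 20 such groups, here 4.1. *Isg15* was at 5.91 CPM in WT replicate 4 and at 11.2 to 13.2 CPM in the other WT samples. *Usp18* was at 4.51 CPM in the same sample and at 12.0 to 13.2 CPM in the others. *Xaf1* was at 18.3 CPM there and at 29.9 to 34.4 CPM in the others. *Dtx3l* was at 14.2 CPM in recent KO replicate 2 and at 16.3 to 17.1 CPM in the rest of its group. *Lgals3bp* was at 157 CPM in recent KO replicate 2 and at 169 to 173 CPM in the others. *Stat2* was at 6.43 CPM in WT replicate 2, above 4.25 to 4.74 CPM in the others, and at 3.23 CPM in recent KO replicate 3, below 4.93 to 5.34 CPM in the others. Of the 7, 5 were low values in WT replicate 4 or recent KO replicate 2, the samples most often lowest for the ISGs, and no cause was tested.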

How the results depend on the processing

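No ISG and no pathway gene passed the adjusted threshold in any alternative run: RLE scaling, library size only, no filter on low counts, DESeq2, limma on log2(TPM + 1) or log2(TPM + 0.1), the replicate block, leaving out each sample in turn, and, chosen after seeing the data, leaving out WT replicate 4 and recent KO replicate 2. The unadjusted count of ISGs was 1 or 2 throughout, though the share of all genes was computed for the main edgeR fit only (10.2%). The median log2 fold change of the ISGs was -0.11 to 0.06 with 1 sample left out and -0.02 without both low samples. The count of ISGs without overlap between groups was 0 to 1 with 1 sample left out. The 1 was *Lgals3bp*, without WT replicate 5 or without recent KO replicate 2. Without both low samples the count was 1. The share of all tested genes without overlap was not computed in these runs. These counts therefore have no background, and no conclusion is drawn from them. Over all genes the count of calls was 206 of 27909 with no filter, 156 with DESeq2, 25 and 24 with limma at pseudocounts of 1 and 0.1, 64 without both low samples, and 25 to 91 with 1 sample left out, 91 being without recent KO replicate 2. *Mpc2* kept its direction but missed the threshold with limma (-1.35, adjusted p = 0.130, and -1.38, adjusted p = 0.138), and with 1 sample left out ranged from -1.60 to -1.31, missing it only without recent KO replicate 1 (adjusted p = 0.05002), and was at -1.19 without both low samples. The cause of these changes was not tested.

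With the replicate number as a block, 20 genes were called, *Mpc2* was at -1.46 (adjusted p = 0.0577) and *Usp18* at -0.050. The numbers did not pair the samples, since deviations of same-numbered samples correlated at -0.177 to 0.058.

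Signs of log2 fold changes near 0 turned. With library size only, *Ifi27* was at 0.032, *Tap1* at 0.013 and *Stat2* at 0.020. In limma with pseudocounts of 1 and 0.1, *Ifi27* was at 0.0040 and 0.0039, *Xaf1* at -0.16 and -0.17, and *Tap1* at 0.034 and 0.036. Without both low samples, *Ifi27* was at 0.017 and *Usp18* at -0.0075. With 1 sample left out, the ranges that crossed 0 were -0.14 to 0.13 for *Ifi27*, -0.056 to 0.081 for *Ifi35*, -0.54 to 0.10 for *Ifi44*, -0.34 to 0.13 for *Ifit1*, -0.37 to 0.0097 for *Isg15*, -0.023 to 0.062 for *Psmb9*, -0.37 to 0.0065 for *Rsad2*, -0.10 to 0.078 for *Stat2*, -0.11 to 0.0014 for *Tap1*, -0.18 to 0.18 for *Usp18* and -0.10 to 0.17 for *Xaf1*. Depth limits the genes under 1 TPM, whose values rest on few reads.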
